A study of Mus musculus with 14 samples.

Results

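The Dlx and Msx homeobox genes, Dlx1, Dlx2, Dlx3, Dlx4, Dlx5, Dlx6, Msx1 and Msx2, were taken by name. All 8 were found among the 26252 genes of the deposited count table. RNA had been sequenced from the dorsal skin epithelium of wild-type (WT) C57BL/6JOlaHsd mouse embryos at E14.5, when the first hair placodes, buds of the future follicles, sit in the interfollicular epithelium (IFE). Sorting used an antibody to MAdCAM-1, an adhesion molecule of the cell surface. Positive cells made up the placode-enriched fraction (7 libraries) and negative cells the IFE fraction (7 libraries), so a fraction is an enriched mixture and not a pure cell type. Each title code was shared by a library of either fraction, which gave 7 pairs, and a library was made from the pooled epithelium of 3 to 4 littermates, so no value belongs to a single embryo. All groups shared genotype, strain, age and tissue.

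Dlx genes are the vertebrate relatives of the fly gene Distal-less, and Msx genes are relatives of the fly muscle segment homeobox gene. Their proteins are transcription factors that bind DNA through a homeodomain, Dlx proteins mostly as activators and Msx proteins mostly as repressors. In mammals the Dlx genes lie as neighbours in convergent pairs. Dlx3 is required in epidermis and hair for differentiation, Dlx5 and Dlx6 are known for roles in jaw, ear and limb, Dlx1 and Dlx2 for roles in forebrain and jaw, and Msx1 and Msx2 act downstream of bone morphogenetic protein (BMP) signalling in teeth, skull and hair.

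The homeoboxes of the 4 members with substantial counts are shown because they are the coding stretch that the family shares. They were read from GENCODE M21 transcripts (GRCm38), 5′ to 3′ on the coding strand, and capitals mark the codons for the run Trp-Phe-Gln-Asn of the DNA-contacting helix. The Dlx3 homeobox lies on the plus strand in exon 2 (chr11:95121767-95121898) and exon 3 (chr11:95123409-95123456), and that of Dlx4 on the minus strand in exon 2 (chr11:95141789-95141920) and exon 3 (chr11:95141422-95141469). The Dlx5 homeobox lies on the minus strand in exon 2 (chr6:6879526-6879657) and exon 3 (chr6:6878441-6878488), and that of Msx2 lies in exon 2 (chr13:53468370-53468549), also on the minus strand.
Dlx3: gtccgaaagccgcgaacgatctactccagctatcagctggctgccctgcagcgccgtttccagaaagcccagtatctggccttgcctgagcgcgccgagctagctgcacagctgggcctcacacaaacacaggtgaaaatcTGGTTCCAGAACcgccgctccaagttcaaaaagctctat
Dlx4: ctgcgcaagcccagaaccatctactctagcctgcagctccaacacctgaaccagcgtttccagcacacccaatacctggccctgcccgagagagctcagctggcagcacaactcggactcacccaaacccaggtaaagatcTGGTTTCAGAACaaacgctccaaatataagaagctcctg
Dlx5: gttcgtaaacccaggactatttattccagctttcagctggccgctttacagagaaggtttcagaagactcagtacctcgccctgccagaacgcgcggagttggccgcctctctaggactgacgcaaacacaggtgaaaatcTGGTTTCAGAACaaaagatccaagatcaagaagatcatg
Msx2: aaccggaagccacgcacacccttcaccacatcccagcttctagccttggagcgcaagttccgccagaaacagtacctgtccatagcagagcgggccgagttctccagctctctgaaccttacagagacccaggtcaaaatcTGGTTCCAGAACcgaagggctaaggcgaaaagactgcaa
Each homeobox has 180 bases. Dlx3 and Dlx5 had 129 identical bases and 53 identical residues of 60, and Dlx3 and Dlx4 had 129 bases and 48 residues. Between Dlx and Msx members 31 to 36 residues were identical, against 47 to 58 among Dlx members and 58 between Msx1 and Msx2. Among the transcripts of these 4 genes the longest exact run in common was 23 bases, between Dlx3 and Dlx5, and over all 8 members it was 44 bases, between Dlx6 and Msx2, a run that their homeoboxes do not hold.

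Library totals lay between 23768071 and 49512872 counts. Levels are CPM, counts scaled to the TMM-adjusted size of the library, and CPM per kb of exon where genes are compared with each other. Markers of epithelium were present in every library, with a sum of 7 markers between 4643 and 5792 CPM in placode-enriched and between 5163 and 6409 CPM in IFE libraries. The 10 placode markers summed to 2493 ± 327 CPM in placode-enriched cells against 1021 ± 101 in IFE cells (SD, n = 7 each). The 11 suprabasal markers, genes of the differentiating layer above the basal cells, summed to 305 ± 88.9 CPM in placode-enriched cells against 3777 ± 632 in IFE cells. Fewer cells of a type and less RNA per cell cannot be told apart in these pools.

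The 8 members fell into 3 kinds. Dlx5 was lower and Msx2 higher in the placode-enriched cells, Dlx3 and Dlx4 were expressed in both fractions without a call, and Dlx1, Dlx2, Dlx6 and Msx1 were at or near 0. A filter on low counts kept 4 of the 8 members. Of these, 1 was called higher and 1 lower by the quasi-likelihood test of edgeR, blocked by pair (adjusted p below 0.05), where 31.1% of the 15382 genes tested were called, 15.5% higher and 15.6% lower. The groups of 7 did not overlap for Dlx5 and Msx2, as for 14.8% of all genes tested.

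**Figure D1:**
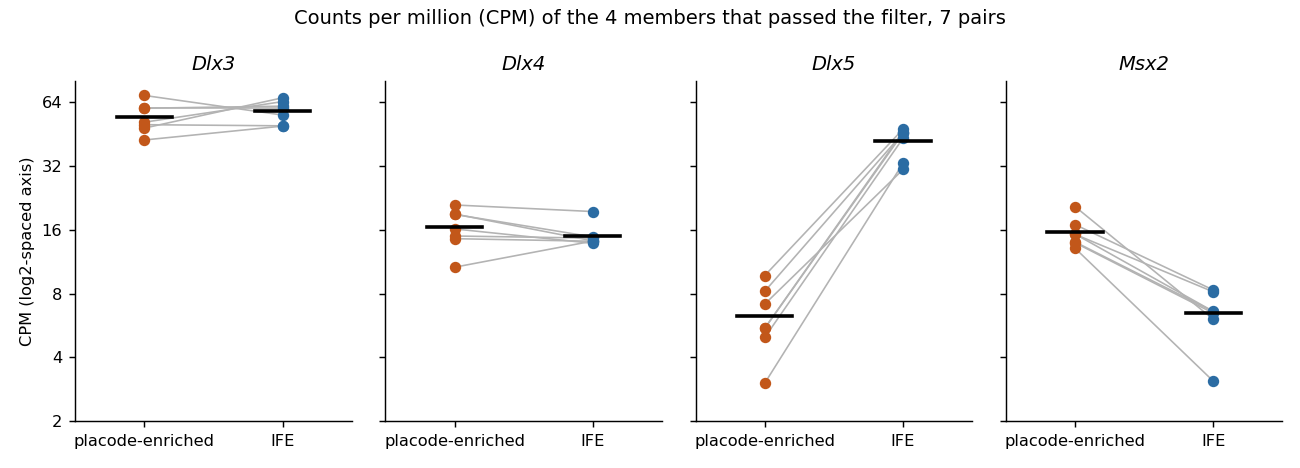
CPM of Dlx3, Dlx4, Dlx5 and Msx2 in 7 placode-enriched (left) and 7 IFE (right) libraries on a log2-spaced axis. Lines join libraries of a pair and bars are means. Dlx5 is lower in placode-enriched cells in 7 of 7 pairs and Msx2 higher in 7 of 7, while the Dlx3 and Dlx4 groups overlap.

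Dlx5 (ENSMUSG00000029755; GRCm38 chromosome 6, 6877805 to 6882085, minus strand) had from 3.02 to 9.73 CPM in placode-enriched libraries, with a median of 5.48, against 30.9 to 47.9 CPM in IFE libraries, with a median of 45.9. The highest placode-enriched library was thus far below the lowest IFE library. The means were 6.28 ± 2.23 CPM in placode-enriched cells and 41.9 ± 6.98 CPM in IFE cells (SD, n = 7 each). Dlx5 fell by 2.79 ± 0.16 on the log2 scale (SE, approximate; adjusted p = 2.23e-08 by edgeR), a 6.91-fold lower level, and the differences within pairs ran from -3.43 to -2.11. By size of change Dlx5 ranked 431 among the 4786 genes called. Behind these values stood 1467 counts in all placode-enriched and 9894 counts in all IFE libraries. The suprabasal markers were lower too. Of 11 tested, 10 fell and Calml3 did not pass, and their sum, 225 to 487 CPM in placode-enriched cells against 2981 to 4628 in IFE cells, differed by -3.66 on the log2 scale. Their part in the Dlx5 difference was not tested. Within the 3 pairs whose codes start with 27-7 the Dlx5 log2 fold change was -2.88, and within the 4 other pairs -2.70.

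Over the 14 libraries the genes whose log2 CPM followed Dlx5 most closely were Ppl, Klf3 and Sbsn, each with a Pearson r of 0.992. Numbered and predicted gene models were left out of this ranking. Ppl encodes periplakin, a linker of the cornified envelope, and had 92.9 CPM in placode-enriched cells against 440.1 in IFE cells on average (log2 fold change -2.26 ± 0.09). Klf3, a zinc-finger repressor, had 88.9 CPM in placode-enriched cells and 234 in IFE cells (-1.41 ± 0.08). Sbsn, suprabasin, had 14.6 CPM in placode-enriched cells and 149 in IFE cells (-3.38 ± 0.14) and is also a suprabasal marker above. The 14 points share the split into fractions, so r describes that split as well as any finer likeness.

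Msx2 (ENSMUSG00000021469; chromosome 13, 53466884 to 53473074, minus strand) had from 13.1 to 20.6 CPM in placode-enriched libraries, with a median of 15.2, against 3.08 to 8.31 CPM in IFE libraries, with a median of 6.58. All placode-enriched libraries were above all IFE libraries. The means were 15.6 ± 2.54 CPM in placode-enriched cells and 6.46 ± 1.73 CPM in IFE cells (SD, n = 7 each). Msx2 rose by 1.31 ± 0.15 on the log2 scale (adjusted p = 2.3e-05 by edgeR), a 2.47-fold higher level, with differences within pairs from 0.90 to 2.07. The widest difference, 2.07, belonged to pair 2, whose IFE library had the lowest Msx2 level, and without that pair the log2 fold change was 1.19. The pairs with 27-7 codes gave 1.34 and the others 1.30. The 10 placode markers rose as well, 10 of 10, and their part in the Msx2 difference was not tested. With the same gene models left out, Kctd17 (r = 0.973), Runx2 (r = 0.964) and Gpc2 (r = 0.961) followed Msx2 most closely over the 14 libraries. Runx2, a transcription factor of bone and skin, averaged 32.9 CPM in placode-enriched cells against 4.51 in IFE cells (2.88 ± 0.20), Gpc2, a glypican of the cell surface, 40.3 CPM in placode-enriched cells and 12.5 in IFE cells (1.69 ± 0.11), and Kctd17 13.8 CPM in placode-enriched cells and 3.94 in IFE cells (1.82 ± 0.21).

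Dlx3 (ENSMUSG00000001510; chromosome 11, 95120119 to 95125296, plus strand) had from 42.5 to 69.1 CPM in placode-enriched libraries, with a median of 51.6, against 49.5 to 67.3 CPM in IFE libraries, with a median of 60.2. The groups overlapped over most of their range. The means were 54.6 ± 8.98 CPM in placode-enriched cells and 58.3 ± 7 CPM in IFE cells, and the log2 fold change was -0.10 ± 0.09 (edgeR adjusted p = 0.454), lower in 4 of 7 pairs. The differences within pairs lay between -0.48 and 0.31, on both sides of 0.

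Dlx4 (ENSMUSG00000020871; chromosome 11, 95140447 to 95146263, minus strand) lies tail to tail with Dlx3, with 15150 bases between the genes. It had from 10.7 to 21 CPM in placode-enriched libraries, with a median of 16.2, against 13.8 to 19.5 CPM in IFE libraries, with a median of 14.2. Its log2 fold change was 0.11 ± 0.11 (edgeR adjusted p = 0.504), higher in 6 of 7 pairs. Dlx4 shares 79 exonic bases with the antisense transcript Dlx4os (ENSMUSG00000086552), which averaged 10.7 ± 1.93 CPM in placode-enriched cells against 9.62 ± 1.02 in IFE cells (0.14 ± 0.14; edgeR adjusted p = 0.507). The strand setting of the counting is not given in the sources used here, so reads of the shared bases cannot be told apart. The log2 ratio of Dlx3 to Dlx4 averaged 1.71 ± 0.21 in placode-enriched and 1.92 ± 0.26 in IFE libraries. The difference of -0.21 was lower in 5 of 7 pairs and did not pass (exact two-sided sign-flip permutation p = 0.141, n = 7 pairs, 1 ratio tested).

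**Figure D2:**
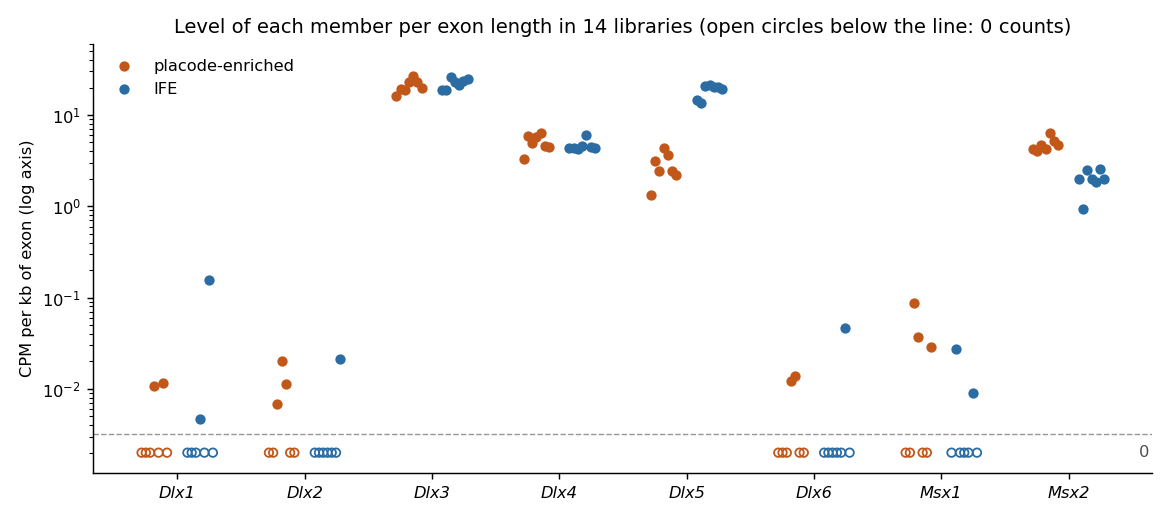
Level of each of the 8 members in CPM per kb of exon on a log axis, in 7 placode-enriched (left of each gene) and 7 IFE (right) libraries, with open circles for libraries at 0. Dlx3, Dlx4, Dlx5 and Msx2 lie above 0.9 in every library and Dlx1, Dlx2, Dlx6 and Msx1 below 0.2.

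The other members were scarcely counted. Dlx6 (ENSMUSG00000029754; GRCm38 chromosome 6, 6863334 to 6868568, plus strand) lies 9236 bases from Dlx5 and had 2 counts in all placode-enriched libraries together and 4 in all IFE libraries. Dlx2 (ENSMUSG00000023391; chromosome 2, 71543408 to 71546754, minus strand) had 4 counts in placode-enriched and 2 in IFE libraries. Dlx1 (ENSMUSG00000041911; chromosome 2, 71528113 to 71533981, plus strand) had 4 counts in placode-enriched and 31 in IFE libraries, of which 30 came from IFE replicate 6. Msx1 (ENSMUSG00000048450; chromosome 5, 37820485 to 37824583, minus strand) had 21 counts in placode-enriched libraries, 14 of them in replicate 3, and 4 in IFE libraries. At these depths 3 counts correspond to between 0.0606 and 0.126 CPM per library, and no fold change is given for genes at that level. The antisense transcripts at Dlx1 and Dlx6 were also near 0. Dlx1as, which shares 335 exonic bases with Dlx1, had 0 counts in placode-enriched and 4 in IFE libraries, all of them in IFE replicate 6. One Dlx6os1 identifier (ENSMUSG00000090063) had 0 counts in placode-enriched and 14 in IFE libraries, 11 of them in IFE replicate 3. A second (ENSMUSG00000098326) had 0 in placode-enriched and 5 in IFE libraries, all of them in IFE replicate 4.

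The order of the levels differed between the fractions. Per kb of exon, placode-enriched libraries had Dlx3 first (20.9 ± 3.45 CPM per kb), then Dlx4 (5.04 ± 1.07), Msx2 (4.76 ± 0.78) and Dlx5 (2.78 ± 0.99). Dlx3 stood above Dlx4 in 7 of 7 libraries without overlap, while the ranges of Dlx4 and Msx2, and of Msx2 and Dlx5, overlapped. IFE libraries had Dlx3 first (22.4 ± 2.69 CPM per kb), then Dlx5 (18.5 ± 3.09), Dlx4 (4.6 ± 0.61) and Msx2 (1.97 ± 0.53). There the ranges of Dlx3 and Dlx5 overlapped, although Dlx3 was above Dlx5 in each of the 7 libraries, while Dlx5 and Dlx4, and Dlx4 and Msx2, did not overlap. Among all genes tested, the mean level per kb of Dlx5 stood at percentile 38.8 in placode-enriched and 83 in IFE libraries, and that of Dlx3 at 85.3 in placode-enriched and 86.2 in IFE libraries.

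Dlx5 made up 9.43 ± 2.16% of the summed Dlx level per kb in placode-enriched libraries and 40.5 ± 2.32% in IFE libraries (SD, n = 7 each). Dlx3 made up 73.1 ± 3.64% in placode-enriched and 49.2 ± 2.45% in IFE libraries. The summed Dlx level was 28.8 ± 5.13 CPM per kb in placode-enriched and 45.5 ± 5.6 CPM per kb in IFE libraries. The shares are not independent of each other, since those of a library add up to its sum, and the Dlx3 level itself did not pass the test.

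**Figure D3:**
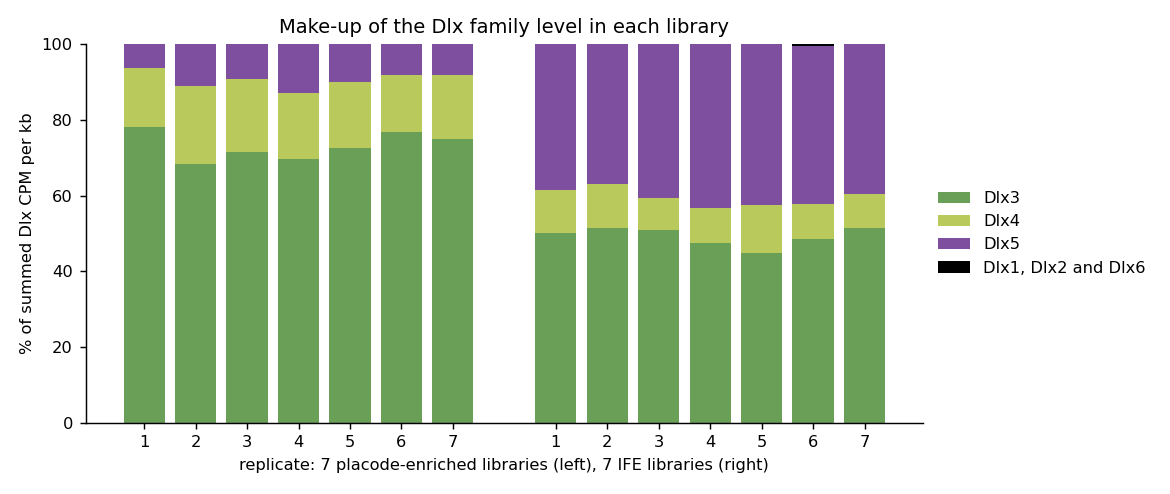
Share of each Dlx member in the summed Dlx level (CPM per kb of exon, in percent) in 7 placode-enriched (left) and 7 IFE (right) libraries. The Dlx5 share lies between 6.37% and 12.9% in placode-enriched and between 36.8% and 43.4% in IFE libraries.

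Of the flanking genes tested, 2 were lower (Sem1 and Sptlc1) and 1 was higher (Itga3), while Sdhaf3, Metap1d, Itga6 and Stx18 did not pass. Over all genes tested 31.1% were called. Each flanking gene differed by less than Dlx5 or Msx2 did. The nearest annotated gene was Metap1d on one side of Dlx1 and Itga3 on one side of Dlx3. On the side of Dlx4 it was the pseudogene Gm11514, which had 11 counts in all placode-enriched and 25 in all IFE libraries and did not pass the filter on low counts. Where the nearest annotated gene had no row in the table, the nearest protein-coding gene was taken if it had one, a choice made after the values were seen. One flank of Msx1 and one of Msx2 had neither, and are not analysed here. On the 2 sides of Dlx5 and Dlx6, Sdhaf3 lay 73919 bases away and Sem1 284671 bases away. Sdhaf3, a factor for succinate dehydrogenase assembly, had 8.61 CPM in placode-enriched cells and 11.2 in IFE cells (log2 fold change -0.38 ± 0.17; edgeR adjusted p = 0.114). The proteasome subunit gene Sem1 had 157 CPM in placode-enriched cells and 191 in IFE cells (-0.30 ± 0.11; adjusted p = 0.0445), lower in 5 of 7 pairs. Sptlc1, an enzyme of sphingolipid synthesis 89487 bases from Msx2, was lower where Msx2 was higher, at 19.7 CPM in placode-enriched cells and 28.3 in IFE cells (-0.52 ± 0.10; adjusted p = 0.00176). Itga3, the integrin alpha 3 gene 43318 bases from Dlx3, rose slightly (0.37 ± 0.10; adjusted p = 0.0109). Metap1d, 2919 bases from Dlx1 (0.13 ± 0.11; adjusted p = 0.421), and Itga6, 198862 bases from Dlx2 (adjusted p = 0.97), did not pass. Nor did Stx18, 214159 bases from Msx1 (0.22 ± 0.10; adjusted p = 0.122).

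Of 40 other homeobox genes of the NK-like class, to which Dlx and Msx belong, 25 had a row in the table and 2 passed the filter on low counts. Barx2, a homeobox gene of ectoderm and muscle, averaged 26.6 ± 8.77 CPM in placode-enriched cells against 33.8 ± 4.29 in IFE cells (log2 fold change -0.39 ± 0.13; edgeR adjusted p = 0.0347; lower in 6 of 7 pairs). Emx2 was near the floor, at 0.354 CPM in placode-enriched cells and 0.711 in IFE cells, and did not pass (adjusted p = 0.307).

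BMP signalling, which induces Msx and Dlx genes in several tissues, had 21 tested genes of 24 listed, with 8 higher, 5 lower and 8 not passing. Their median log2 fold change was 0.09, against -0.02 over all genes tested, of which 15.5% were called higher and 15.6% lower. Among the ligands, Bmp2 rose to 158 ± 36.9 CPM in placode-enriched libraries, against 48.4 ± 10.5 CPM in IFE libraries (log2 fold change 1.70 ± 0.07; edgeR adjusted p = 9.91e-10). Bmp7 rose as well (0.83 ± 0.07; edgeR adjusted p = 1.01e-06), and Bmp4 and Bmp6 did not pass (edgeR adjusted p = 0.361 and 0.0542). These 3 were named after their values were seen. Of the secreted BMP antagonists, Chrd and Sostdc1 rose and Nog fell. Chrd had 0.59 CPM in placode-enriched cells and 0.0994 in IFE cells (3.01 ± 0.71). That fold depends on the prior count, since the IFE level is that of about 3 counts. Sostdc1, also among the placode markers and named after its values were seen, had far more counts. It had 452 ± 53.6 CPM in placode-enriched cells and 230.6 ± 17.9 in IFE cells (0.97 ± 0.06). Nog had 0.941 CPM in placode-enriched cells and 2.3 in IFE cells (-1.38 ± 0.32). Id3, a common target of BMP signals, rose to 125 ± 18.1 CPM in placode-enriched libraries, against 54.9 ± 4.11 CPM in IFE libraries (1.18 ± 0.08; adjusted p = 1.55e-07). Id1 and Id2, related targets, were lower instead (-0.79 ± 0.11 and -1.07 ± 0.12; named after their values were seen). Id4 was higher (0.66 ± 0.21; edgeR adjusted p = 0.0276), as was Smad7 (1.05 ± 0.17; adjusted p = 0.000306). Bambi was lower (-0.69 ± 0.23; edgeR adjusted p = 0.0352), and Smad6 did not pass (adjusted p = 0.96). Id4, Smad7, Bambi and Smad6 were also named after their values were seen. Smad4, the shared transducer, had 169 ± 13.3 CPM in placode-enriched cells and 150.4 ± 11.3 in IFE cells and did not pass (0.17 ± 0.06; adjusted p = 0.052).

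Of 14 genes listed as regulators, protein partners or targets of Dlx and Msx factors, 13 were tested, with 7 higher, 4 lower and 2 not passing and a median log2 fold change of 0.36. Over all genes tested 15.5% were called higher and 15.6% lower, and the median was -0.02. The list shares Lhx2 with the placode markers. Lhx2, a LIM homeobox gene whose protein binds Msx1, had 18 ± 3.51 CPM in placode-enriched cells against 0.659 ± 0.387 in IFE cells (4.84 ± 0.29; edgeR adjusted p = 3.47e-08). Runx2, named above, rose too, and Tle4, a co-repressor of the Groucho family, rose by 1.48 ± 0.09 on the log2 scale. Foxn1, a forkhead gene of hair and epidermal differentiation that is known to act downstream of Msx2 in the hair shaft, fell to 6.57 ± 1.8 CPM in placode-enriched libraries, against 26.8 ± 7.75 CPM in IFE libraries (-2.02 ± 0.20; adjusted p = 5.11e-06), the reverse of the Msx2 direction. Gata3, known as a target of Dlx3, had 528 ± 153 CPM in placode-enriched cells and 543 ± 65.9 in IFE cells and did not pass (adjusted p = 0.665). Trp63 and Hoxc13 were named after their values were seen. Trp63, which encodes p63, an activator of Dlx3 in ectoderm, rose to 1269 ± 73.6 CPM in placode-enriched libraries, against 911 ± 49.5 CPM in IFE libraries (0.48 ± 0.06), and Hoxc13, a target of Dlx3 in the hair follicle, fell to 2.83 ± 0.81 CPM in placode-enriched libraries, against 5.79 ± 1.21 CPM in IFE libraries (-1.05 ± 0.19).

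**Figure D4:**
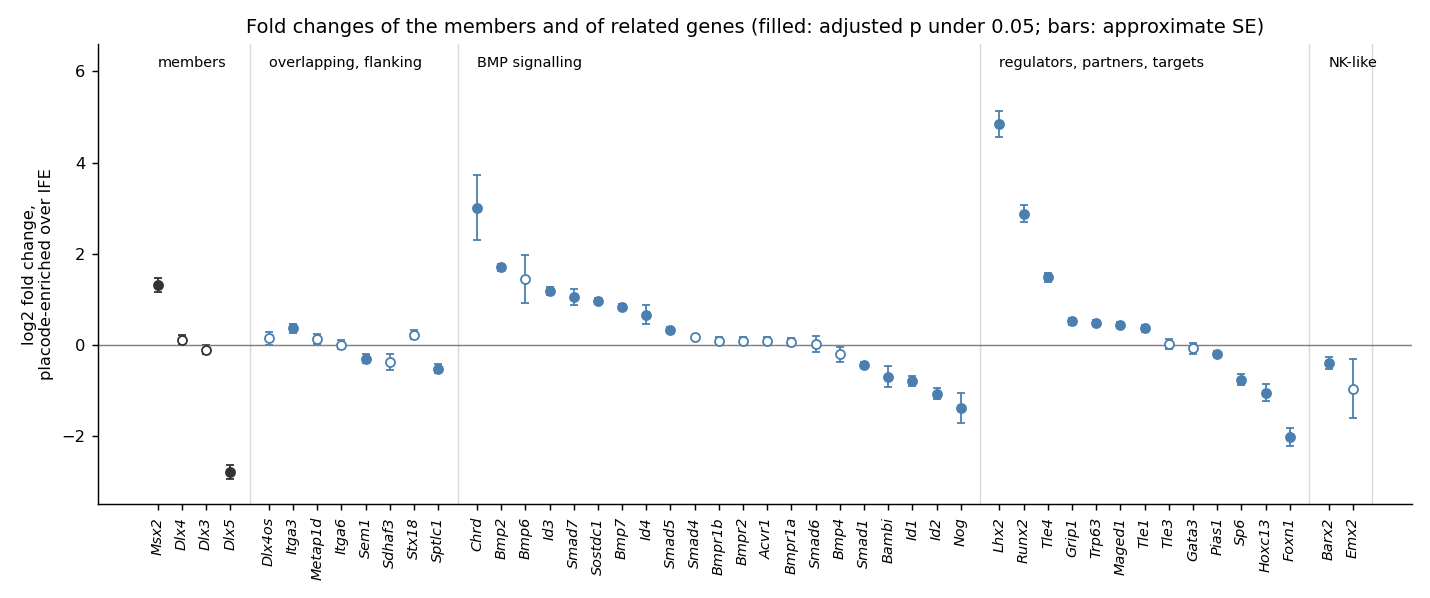
Log2 fold changes of placode-enriched over IFE with approximate SE for the 4 tested members, overlapping and flanking genes, and 3 lists, filled where the adjusted p was under 0.05. Msx2 (1.31) and Dlx5 (-2.79) are the filled members, and the flanking genes lie between -0.52 and 0.37.

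Summed markers also differed between the fractions for 4 of 5 lists of cell types beyond the epithelium, although single genes carried much of some sums. The sum of 9 melanoblast markers was 11.7 ± 2.56 CPM in placode-enriched cells against 172 ± 36.3 in IFE cells, and that of 8 neuron and Schwann cell markers 92.7 ± 9.92 CPM in placode-enriched cells and 153 ± 4.92 in IFE cells. Erbb3 alone gave 87.7 CPM of that sum in placode-enriched cells and 142 in IFE cells. The sum of 10 dermal fibroblast markers was 1574 ± 266 CPM in placode-enriched cells and 1026 ± 110 in IFE cells. Most of it came from Postn and Dcn, while Twist1 and Prrx1 were at 0 in all placode-enriched libraries. Of the 10 markers, 5 had a higher mean in placode-enriched cells and 5 a lower mean. The 5 endothelial markers summed to 2.49 ± 1.02 CPM in placode-enriched cells and 0.885 ± 0.617 in IFE cells. Pecam1 alone gave 1.83 CPM of that sum in placode-enriched cells and 0.493 in IFE cells. Of the 5 markers, 4 had a higher mean in placode-enriched cells and 1, Esam, a lower mean. These 4 lists had an exact sign-flip permutation p of 0.0156 each, the smallest that 7 pairs allow, or 0.0195 adjusted over 5 lists. The 6 immune markers summed to 5.94 ± 1.83 CPM in placode-enriched cells and 4.88 ± 1.16 in IFE cells and did not pass (exact sign-flip permutation p = 0.266). Cd68 alone gave 5.49 CPM of that sum in placode-enriched cells and 4.27 in IFE cells. Of single markers that passed the filter on low counts, 8 of 8 for melanoblasts and 3 of 5 for neurons and Schwann cells were lower, 3 of 7 for fibroblasts were higher and 1 lower, and the 1 endothelial marker tested was higher (edgeR). The part of these cell types in the Dlx5 and Msx2 differences was not tested.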

How the data were processed

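Whole-number read counts per Ensembl gene were deposited by the authors with no normalization. The submitters' processing notes name STAR (version given as 1.5), HTSeq, Trimmomatic, FastQC, MultiQC and bcl2fastq (2.17.1.14), and the builds GRCm38 and mm10. For annotation release, strand setting and duplicates, the treatment is not given in the sources used here. Since reads were amplified, they are not independent molecules, so floors cover counting error only. Symbols, coordinates and exon lengths came from GENCODE M21, which matched 25949 of 26252 identifiers.

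Counts were tested with edgeR 4.0.16 (R 4.3.3): filterByExpr kept 15382 genes, TMM scaling, robust quasi-likelihood F tests with the pair as a block, and Benjamini-Hochberg adjustment over all genes at 0.05. Log2 fold changes (placode-enriched over IFE) used a prior count of 0.125, and their SEs are approximate. Differences within pairs used a prior count of 2. The fit was tested on simulated data. The pairing comes from the title codes and design text. Within a pair, deviations from the means of the fractions had a mean correlation of 0.055 (-0.132 to 0.195). The p-values reflect only how these pools vary.

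The Dlx3 to Dlx4 ratio used a pseudocount of 0.5 CPM. Named genes were the members, overlapping and flanking genes, the 3 genes most correlated with each called member, and up to 4 called genes plus the uncalled gene with the smallest p of each list. The correlated genes were taken without numbered or predicted gene models. Members and lists were chosen with earlier results of these data known. Alternatives were other scalings, filters and tools (DESeq2 1.42.0, limma-voom from limma 3.58.1), no block, subsets of pairs, each pair left out and a threshold of 0.01.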

Additional observations from a re-analysis of the deposited data

Results flagged for a closer look

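A library stood far from the other 6 of its group in 7 of 34 groups of values examined. Chance gives about 1 in 20 for continuous values, a rate that does not apply to 5 of the 7, the Dlx1, Dlx2, Dlx6 and Msx1 groups, in which 4 to 6 libraries were at 0. Dlx1 had 0.834 CPM in IFE replicate 6, against 0.0254 CPM in the next library. IFE replicate 6 also had the highest Dlx6 value (0.111 CPM, the other 6 at 0) and the only Dlx1as counts. Counts were found there for 21670 genes, the most of the 14 libraries, against 20270 in IFE replicate 4. Dlx2 was at 0.0602 CPM in IFE replicate 7 and at 0 in the other 6 IFE libraries. Msx1 reached 0.273 CPM in placode-enriched replicate 3, against 0.115 CPM in the next library, and 0.0857 CPM in IFE replicate 2, against 0.0278 CPM. Dlx4 stood at 19.5 CPM in IFE replicate 5, against 14.8 CPM in the next library, and without that pair its log2 fold change was 0.11. The summed dermal fibroblast markers reached 1256 CPM in an IFE library, against 1032 CPM in the next. Apart from the Dlx4 and fibroblast values, the flagged values rest on 30 counts or fewer.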

How the results depend on the processing

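The Dlx5 and Msx2 calls and the absence of a call for Dlx3 and Dlx4 held under each of the 18 alternatives tried, with log2 fold changes from -2.90 to -2.69 for Dlx5, 1.19 to 1.39 for Msx2, -0.17 to -0.01 for Dlx3 and 0.06 to 0.20 for Dlx4. The highest adjusted p was 6.74e-05 for Dlx5 and 0.00448 for Msx2, both in the 3 pairs with 27-7 codes. Without the pair as a block (no replicate block) Dlx5 was at -2.74 and Msx2 at 1.27. Leaving out each pair in turn moved the count of called genes between 3948 and 5169. The placode-enriched minus IFE difference in the Dlx3 to Dlx4 log2 ratio then lay between -0.28 and -0.13, with no call. In the 3 pairs with 27-7 codes 2332 genes were called, 1233 higher and 1099 lower, and in the 4 other pairs 3096, with 1477 lower, where fewer samples were fitted. With library size only, the summed immune markers passed at a log2 difference of 0.286 (exact sign-flip permutation p = 0.0312 adjusted over 5 lists, against 0.266 with TMM), and the cause was not tested. Low counts limit Dlx1, Dlx2, Dlx6 and Msx1, whose levels cannot be compared between the fractions.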
